A study of Mus musculus with 56 samples.

Results

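The cytochrome P450 genes of families 1 to 4 were followed in mouse liver after loss of miR-122, the most abundant microRNA of hepatocytes. Members were all genes of the RNA-seq table whose symbol begins with Cyp1, Cyp2, Cyp3 or Cyp4 and then a letter. The rule found 83 members among 21888 gene symbols, 3 of them in family CYP1, 52 in CYP2, 8 in CYP3 and 20 in CYP4. Of these, 58 had a mean of at least 1 FPKM (a read level scaled to transcript length and library size) over the 14 libraries and were tested, among 11354 tested genes. The other 25 were not tested: 6 were listed at 0 in every library and 19 had low values. The tested set held 1 CYP1, 36 CYP2, 7 CYP3 and 14 CYP4 genes. An exact 0 need not mean no expression, since albumin (Alb) was also listed at 0 FPKM in every library.

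Cytochrome P450 enzymes are heme proteins of the endoplasmic reticulum that insert an oxygen atom into their substrates, using electrons passed on by P450 oxidoreductase (Por). Families 1 to 3 are best known for the oxidation of drugs and other foreign compounds and of steroids, and family 4 for the hydroxylation of fatty acids and eicosanoids. In liver many of them are made mainly by the pericentral hepatocytes around the central vein, while Cyp2f2 is known as a periportal gene. Several are induced through nuclear receptors (CAR, PXR, PPARalpha) or the aryl hydrocarbon receptor (AhR), and many mouse P450s differ between the sexes under the control of growth hormone.

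The libraries came from polyA RNA of livers of 129Sv/J mice. Mice with loxP sites around miR-122 were uninjected (day 0, n = 3) or had received an AAV that carries Cre under the Ef1a promoter, which is not specific to hepatocytes, and were taken at day 21 (n = 3), day 45 (n = 3), day 100 (n = 1) or day 200 (n = 1). The last pair formed 1 late group. Livers of mice labelled as miR-122 knockout formed the fifth group (n = 3). The knockout mice are another line than the floxed mice, and the controls received no vector, so that the effects of colony, of vector and Cre, and of miR-122 loss cannot be told apart. The labels give neither age nor sex for these mice. Values of day 0, day 21, day 45 and knockout are given below in the order of their replicate letters A, B and C. Nothing in the labels ties a letter to a shared litter, and the p-values measure the spread between these samples.

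The deletion was checked in small RNA libraries with the same labels. MiR-122 made up 73.3, 59.2 and 66.7% of microRNA reads at day 0, 12.5, 13.2 and 8.22% at day 21, 0.908, 0.383 and 1.23% at day 45, and 4.46 and 19.1% in the late pair. No small RNA library of the knockout was used here. From the steps between low FPKM values, the RNA-seq depth was estimated at 44.7 to 53.7 M fragments at day 0, 32.4 to 49.0 M after Cre and 22.4 to 29.5 M in the knockout. The FPKM values were quartile-normalized, so these estimates need not equal the number of fragments sequenced. The paper describes its sequencing depth as fairly even between samples. Xist exceeded the summed Y-linked genes Ddx3y, Eif2s3y, Kdm5d and Uty in 10 libraries (12.6 to 71.6 FPKM against at most 0.061), here called Xist-positive. In the other 4 (day 0 B, day 21 C, day 45 C and knockout C), here called Y-positive, the Y sum was 51.1 to 66.8 FPKM and Xist at most 0.133. Each triplicate therefore held 1 Y-positive library and the late group none. Knockout C also stood apart: its log2(FPKM + 1) values correlated with those of knockout A and B at r = 0.881 and 0.895, and with those of the 11 floxed libraries at 0.927 to 0.955 (correlations across genes). The microRNA's own gene was listed at 0 FPKM in all 14 RNA-seq libraries, so that the knockout label of this library, and of knockout A and B, could not be checked here. The knockout calls were therefore also computed without knockout C. For part of the members, values from the Xist-positive libraries alone (2 per group) are given beside those of all libraries, as an analysis chosen after seeing the data.

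All 83 members together held 3.13, 2.84 and 3.11% of the summed FPKM at day 0. The share was 3.58, 4.06 and 3.05% at day 21, 3.55, 2.90 and 3.28% at day 45, 2.21% at day 100, 2.40% at day 200 and 2.45, 2.45 and 3.68% in the knockout. The late libraries and knockout A and B thus lay below all day 0 libraries, and knockout C above them. CYP2 held most of it, from 1.46% at day 100 to 3.19% in day 21 B. CYP3 held 0.282 to 0.381% at day 0 and 0.670 to 0.737% at day 45, and CYP4 held 0.141 to 0.275% at day 0 and 0.0738 to 0.0748% in knockout A and B. Cyp2e1, which oxidises ethanol and other small molecules, was the most abundant member, and alone held 0.959 to 1.04% of the summed FPKM at day 0.

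**Figure D1:**
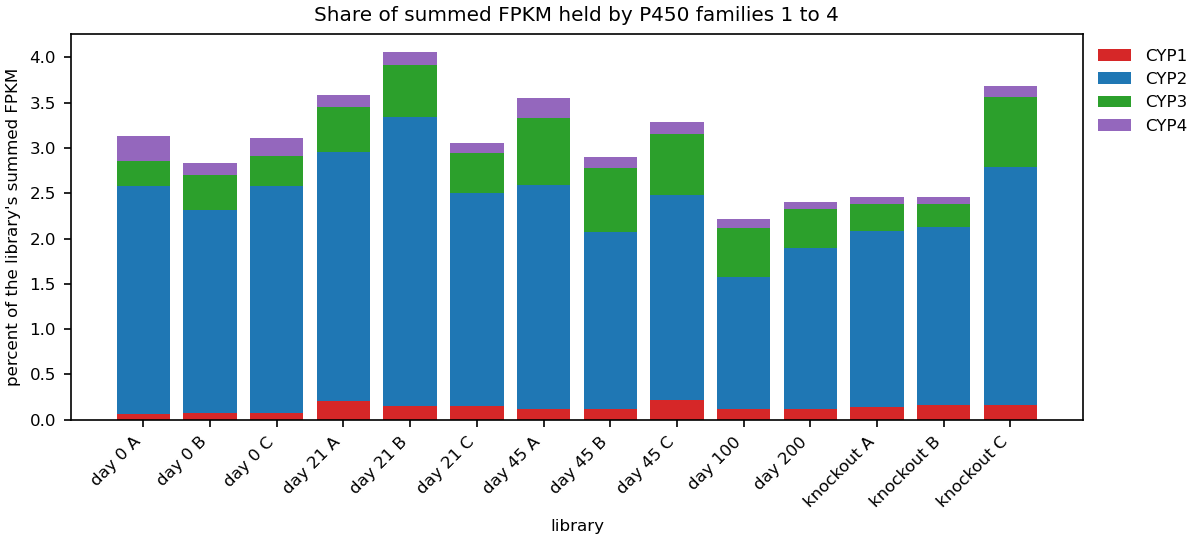
Stacked bars show, for each of the 14 RNA-seq libraries (x axis), the percent of its summed FPKM held by CYP1, CYP2, CYP3 and CYP4 genes (y axis, from 0). The total lies between 2.21% at day 100 and 4.06% in day 21 B.

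At day 21, 2 of 58 members (Cyp1a2 and Cyp2a5, 3.45%) were higher and 1 (Cyp2r1, 1.72%) was lower than at day 0 (limma, Benjamini-Hochberg adjusted p below 0.05), where 6.2% of all tested genes were higher and 1.42% lower. Both calls of higher members were lost without day 0 B. At day 45, 7 members were higher and 3 lower (12.1 and 5.17%), against 23.7 and 2.99% of all genes. The share of higher members thus lay below that of all genes at both times. A fit on the day 0 and day 45 libraries alone gave 8 higher and 7 lower members, and no share of all genes was computed for it. In the late group 4 were higher and 11 lower, which is 6.9 and 19% of the members, against 28.4 and 3.21% of all genes. Without day 100, 1 was higher and 2 were lower in the late comparison, against 13.7 and 0.617% of all genes. In the knockout 6 were higher and 10 lower, or 10.3 and 17.2% of the members, against 19.3 and 14.5% of all genes, so that the share of lower members lay near that of all genes. The median log2 difference of the tested members was 0.01, -0.18, -0.48 and -0.22 in these 4 comparisons, and that of all tested genes 0.06, 0.20, 0.31 and 0.02. Median centring shifted each library by the median deviation of its genes from their means over the 14 libraries. With it, 5 members were higher and 7 lower at day 45, and 4 higher and 21 lower in the late group. It moved the median log2 difference of all genes to -0.04 and -0.03 in these 2 comparisons. No share of all genes called was computed for it, so these counts cannot be set against the uncentred shares. In all, 22 members passed in at least 1 of the 4 comparisons, which share the day 0 libraries, and no member passed in opposite directions. Of the 46 calls over all comparisons, 16 held when each library was left out in turn. Near-identical genes (the Cyp2a, Cyp2b, Cyp2c, Cyp2d, Cyp3a and Cyp4a clusters) can exchange reads, and their single values are uncertain to that extent.

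**Figure D2:**
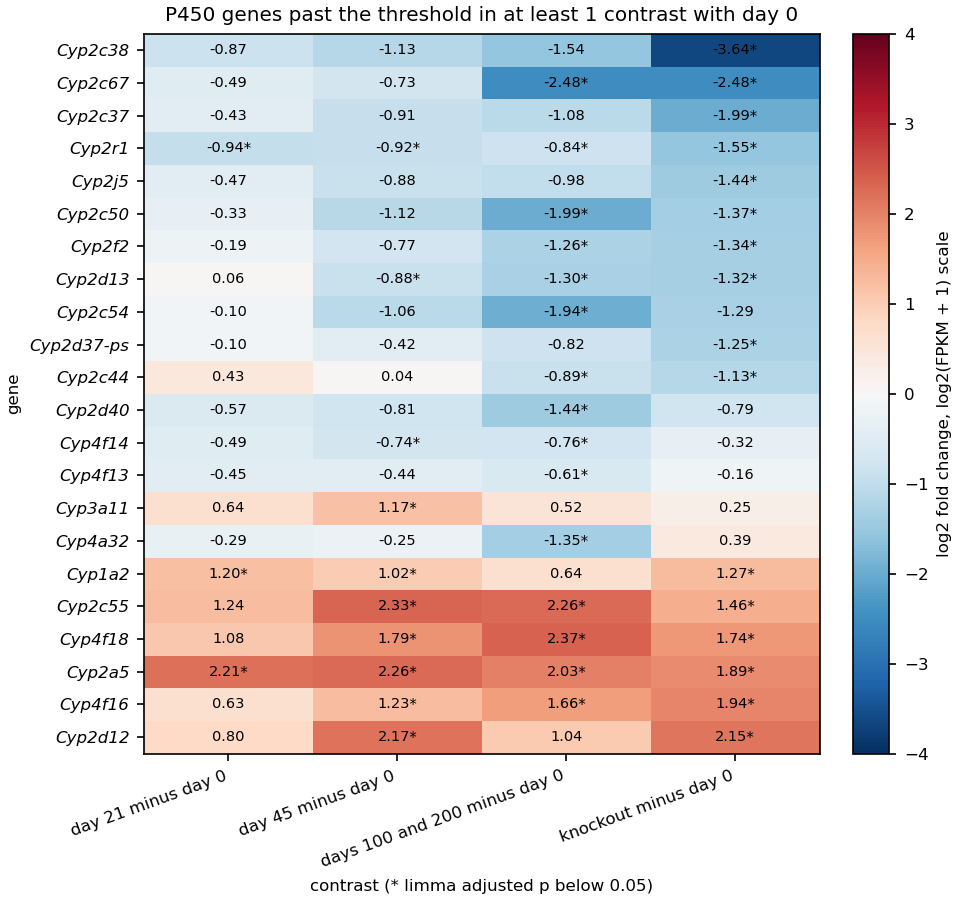
The grid shows the log2 fold change on the log2(FPKM + 1) scale (colour and printed value) of the 22 members that passed in at least 1 comparison with day 0 (rows) in each of the 4 comparisons (columns), and an asterisk marks a limma adjusted p below 0.05. Cyp2a5 and Cyp2r1 carry an asterisk in all 4 columns, in opposite directions.

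Within the Xist-positive libraries, more members passed. At day 21, 6 members were higher and 4 lower (4.24 and 1.42% of all genes), and at day 45, 13 were higher and 13 lower (24.7 and 4.74%). In the late group 10 were higher and 26 lower (33.9 and 5.68%), and in the knockout 10 were higher and 22 lower (28.6 and 28.8%). Every call of the fit on all libraries against day 0 was also made there, 3, 10, 15 and 16 calls in turn.

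The 9 pericentral P450s moved in both directions. Cyp1a2, Cyp2a5 and Cyp3a11 rose, and Cyp2c37, Cyp2c38, Cyp2c50 and Cyp2c54 fell in at least 1 comparison. Cyp2e1 and Cyp2c29 passed in none. At day 21, 2 of 9 were higher and none lower, at day 45, 3 higher and none lower, late, 1 higher and 2 lower, and in the knockout 2 higher and 3 lower. Their median log2 difference was -0.04, -0.52, -0.65 and 0.13 in this order. Among Xist-positive libraries, 3, 3, 3 and 2 of them were higher and 0, 3, 4 and 4 lower.

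Cyp1a2, which oxidises caffeine and aromatic amines and is inducible through AhR (mm9 chr9:57524743-57531462), stood at 361, 383 and 369 FPKM at day 0. It reached 1064, 729 and 799.9 FPKM at day 21 and 600.4, 589 and 1194 at day 45. It was at 548 and 607 at days 100 and 200, and at 880.3, 938 and 865 in the knockout. No later library overlapped the day 0 range. The log2 difference from day 0 was 1.20 ± 0.25 (SE) at day 21 (limma adjusted p = 0.0136), 1.02 ± 0.25 at day 45 (0.00977) and 1.27 ± 0.25 in the knockout (0.00356). In the late group it was 0.64 (adjusted p = 0.102), and 0.66 ± 0.20 among Xist-positive libraries (0.0266). The day 21 call was lost without day 0 A, day 0 B or day 21 C (adjusted p up to 0.0539). The day 45 and knockout calls held without any library. The other AhR-inducible members were too low to test: Cyp1a1 lay at 0.302 to 1.18 FPKM in all libraries but day 45 C, at 3.17, which was also the library highest for Cyp1a2.

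Cyp2a5, a coumarin hydroxylase (mm9 chr7:27620357-27628283), was at 342, 96.7 and 158 FPKM at day 0. It rose to 1081, 814 and 593 at day 21 and to 541, 757 and 1431 at day 45. It was at 719 and 706 in the late libraries and at 758, 848 and 423 in the knockout, all above day 0. The log2 differences were 2.21 ± 0.46, 2.26 ± 0.46, 2.03 ± 0.51 and 1.89 ± 0.46 (limma adjusted p = 0.0139, 0.00367, 0.00954 and 0.00974). The calls at day 21, late and in the knockout were lost without day 0 B, day 100 and knockout B respectively (adjusted p 0.0644, 0.0714 and 0.05).

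Cyp3a11, the main drug-oxidising CYP3A enzyme of mouse liver and a PXR target (mm9 chr5:146666182-146691430), was at 1139, 1641 and 1297 FPKM at day 0, 2071, 2309 and 1933 at day 21 and 3056, 2915 and 3126 at day 45. It was at 2083 and 1783 late, and at 1172, 1016 and 3413 in the knockout. Day 45 did not overlap day 0, while knockout A and B lay within or below the day 0 range and knockout C above it. The log2 difference at day 45 was 1.17 ± 0.36 (limma adjusted p = 0.0284), and the call was lost without day 0 A, day 0 C or any 1 of the day 45 libraries (up to 0.0953). Among Xist-positive libraries it was 0.85 ± 0.20 at day 21 (0.0412), 1.30 ± 0.20 at day 45 (0.00295), 0.66 ± 0.20 late (0.025) and -0.16 in the knockout.

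Cyp2e1 (mm9 chr7:147949730-147960876) did not pass in any comparison. Its FPKM was 5396, 4989 and 5449 at day 0, 5936, 7614 and 6114 at day 21, 5696, 3798 and 5359 at day 45, 2748 and 4106 late and 5195, 5392 and 6856 in the knockout. The late log2 difference was -0.65 ± 0.25 (limma adjusted p = 0.0693), with both late libraries below day 0. Cyp2c29, a CAR target, went from 658, 714 and 685 FPKM at day 0 to 517, 428 and 489 at day 45 and 391 and 527 late (log2 differences -0.52 and -0.59, adjusted p = 0.181 and 0.158).

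Of the pericentral Cyp2c genes, which encode epoxygenases and drug oxidases and lie in 1 cluster on chromosome 19, Cyp2c50 was at 648, 425 and 547 FPKM at day 0 and 417, 459.8 and 395 at day 21. It was at 241, 209.9 and 287 at day 45, 87.3 and 203 late, and 134, 130.0 and 495 in the knockout. All day 45 and late libraries and knockout A and B lay below day 0, and knockout C among it. The log2 difference was -1.99 ± 0.50 late (limma adjusted p = 0.00916) and -1.37 ± 0.45 in the knockout (0.0336). The late call was lost without day 100 (log2 -1.39, adjusted p = 0.155). The knockout call was lost without knockout A or B or any 1 of the day 0 libraries (up to 0.15), and without knockout C the log2 difference was -2.00. Cyp2c54, its neighbour, was at 296, 155 and 308 FPKM at day 0, 39.9 and 96.3 late and 48.8, 59.3 and 323 in the knockout. Its late difference was -1.94 ± 0.68 (adjusted p = 0.046) and was lost without day 0 A, day 0 C or day 100 (up to 0.369, log2 -1.32), with a term for sex in the model (log2 -1.81, 0.0676) and with no filter on low values (0.0612). Among Xist-positive libraries Cyp2c50 and Cyp2c54 were also lower at day 45 (-1.40 and -1.49, 0.0118 and 0.0277), and Cyp2c54 late and in the knockout (-2.26 and -2.47, 0.00319 and 0.00115).

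Cyp2c38 had the largest fall among the members that passed in the knockout, from 56.6, 10.5 and 62.5 FPKM at day 0 to 2.95, 0.836 and 1.96. It was at 35.6, 38.4 and 3.75 at day 21, 19.5, 16.8 and 10 at day 45 and 10.5 and 11.3 late. The Y-positive library was the lowest of day 0, day 21 and day 45. The knockout log2 difference was -3.64 ± 0.77 (limma adjusted p = 0.00532) and held without any library. Among Xist-positive libraries the differences were -1.66 ± 0.29 at day 45 (0.00444), -2.34 ± 0.29 late (0.00058) and -4.49 ± 0.29 in the knockout (1.45e-05). Cyp2c37 was at 763, 149 and 407 FPKM at day 0 and 64.7, 97.2 and 115 in the knockout, a log2 difference of -1.99 ± 0.62 (0.0291) that was lost without day 0 A, day 0 C, knockout A or knockout B (up to 0.107).

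**Figure D3:**
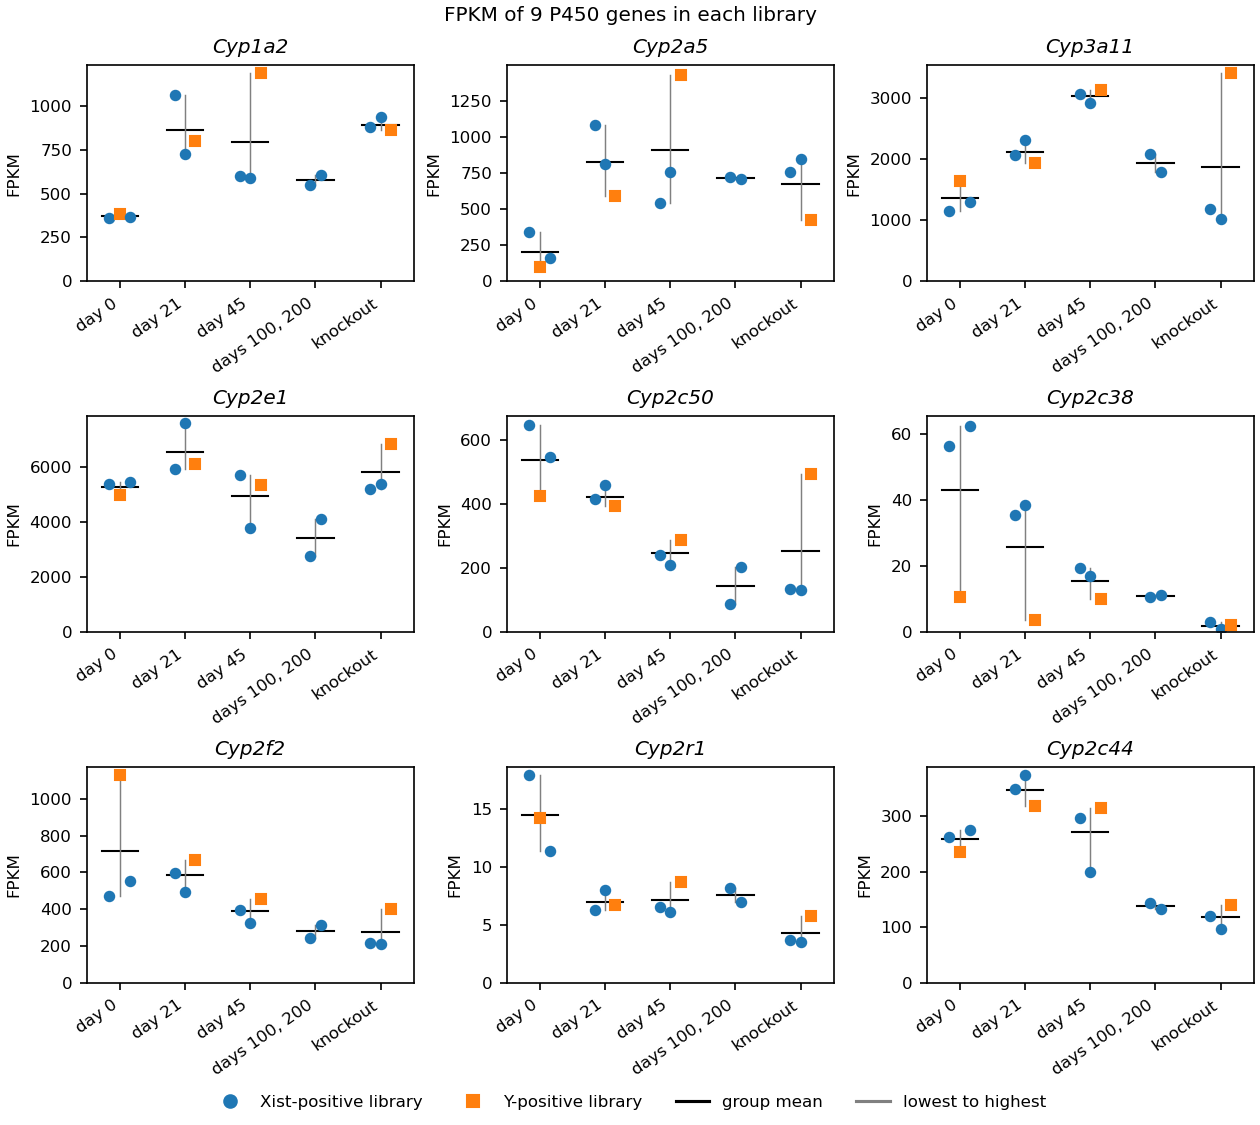
Each panel plots the FPKM (y axis, from 0) of 1 of 9 P450 genes in the 5 groups (x axis), with circles for Xist-positive and squares for Y-positive libraries, a black line at the group mean and a grey line from the lowest to the highest library. Cyp1a2 and Cyp2a5 are higher in every later library than at day 0, Cyp2r1 is lower in every later library, and knockout C stands apart from knockout A and B for Cyp3a11 and Cyp2c50.

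The periportal Cyp2f2, which oxidises naphthalene (mm9 chr7:27904973-27918679), was at 473, 1127 and 553 FPKM at day 0 and 599, 493 and 667 at day 21. It was at 398, 323 and 457 at day 45, 244 and 314 late and 215, 209 and 399 in the knockout, and the late and knockout libraries were all below day 0. The log2 difference was -0.77 at day 45 (limma adjusted p = 0.103), -1.26 ± 0.37 late (0.0198) and -1.34 ± 0.33 in the knockout (0.0101). The late call was lost without day 0 B, the highest and a Y-positive library, or without day 100 (up to 0.17), and the knockout call without knockout B (0.0535). Among Xist-positive libraries the late and knockout differences were -0.88 ± 0.20 (0.00678) and -1.27 ± 0.20 (0.00066). Of 15 pericentral genes that are no P450, 4 were higher and none lower at day 45, and 2 higher and 3 lower in the knockout. Of 12 such periportal genes, 1 was higher and 3 lower at day 45, and 1 higher and 4 lower in the knockout. Without knockout C, the knockout counts were 2 higher and 5 lower, and 4 higher and 5 lower. The difference between the 2 lists was not tested. In bulk liver, fewer cells of a type and less RNA per cell cannot be told apart.

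Cyp2r1, the vitamin D 25-hydroxylase (mm9 chr7:121693681-121706486), was lower in every comparison with day 0. It fell from 17.9, 14.2 and 11.4 FPKM at day 0 to 6.26, 7.98 and 6.75 at day 21, 6.52, 6.15 and 8.69 at day 45, 8.22 and 6.93 late and 3.67, 3.49 and 5.73 in the knockout. None of the later libraries reached the lowest day 0 value. The log2 differences were -0.94 ± 0.20, -0.92 ± 0.20, -0.84 ± 0.23 and -1.55 ± 0.20 (limma adjusted p = 0.0168, 0.00569, 0.0141 and 0.000348). The day 45 and knockout calls held without any library, the day 21 call was lost without day 0 A, day 0 B, day 21 A or day 21 C (up to 0.0749), and the late call without day 0 A, day 100 or day 200 (up to 0.101).

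Of the 7 CAR- and PXR-inducible members, whose receptors sense foreign compounds, 2 were higher and none lower at day 45 (Cyp2c55 and Cyp3a11). In the knockout 1 was higher (Cyp2c55) and 1 lower (Cyp2c37). Without knockout C, 1 was higher and 2 were lower, Cyp3a25 being the added one (log2 -1.62). Cyp2c55 rose from 1.71, 4.71 and 2.85 FPKM at day 0 to 9.35, 33.3 and 20.5 at day 45, 23.7 and 13.2 late and 8.87, 6.79 and 15.2 in the knockout. All of these lay above day 0, as did 12, 8 and 5.73 at day 21, which did not pass. The log2 differences were 2.33 ± 0.44 at day 45, 2.26 ± 0.49 late and 1.46 ± 0.44 in the knockout (limma adjusted p = 0.00265, 0.00419 and 0.0252). The late call was lost without day 100 (0.0713) and the knockout call without day 0 A, day 0 C or knockout A (up to 0.0854). Cyp2b10, the classical CAR target, stayed between 0.108 and 20.8 FPKM and passed in none of these comparisons (log2 0.68 at day 45, SE 0.83). Cyp3a13 and Cyp3a25, further CYP3A oxidases, passed in none either with all libraries, and Cyp3a25 was lower in the knockout among Xist-positive libraries (-1.60 ± 0.20, 0.00026), at 284 and 241 FPKM in day 0 A and C and 87.4 and 83.6 in knockout A and B. Knockout C, at 522 FPKM, was the highest of all 14 libraries for Cyp3a25.

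Of the 4 PPARalpha-inducible fatty acid omega-hydroxylases, 1 was lower late and none passed elsewhere. Cyp4a14 was at 782, 40.9 and 388 FPKM at day 0, 167, 190.1 and 4.55 at day 21, 534, 139 and 83.1 at day 45, 97.3 and 60.4 late and 32.4, 19.6 and 35.8 in the knockout. Day 0 alone spanned most of the range of the later groups, and the day 0 Y-positive library was the lowest there. Among Xist-positive libraries Cyp4a14 was lower late (log2 -2.83 ± 0.57, limma adjusted p = 0.00439) and in the knockout (-4.40 ± 0.57, 0.000272). Cyp4a10 was likewise lower there, by -2.73 ± 0.50 and -1.99 ± 0.50 (0.00293 and 0.00816), with 326 and 158 FPKM in day 0 A and C against 40.8 and 27.5 late and 64 and 50 in knockout A and B. Cyp4a32 fell late with all libraries, from 8.67, 7.76 and 10.2 to 2.84 and 2.89 FPKM (-1.35 ± 0.44, 0.0354), and this call was lost without any 1 of the day 0, day 100 or day 200 libraries (up to 0.168). Cyp4a31 lay at 0.399 to 4.34 FPKM. Among Xist-positive libraries all 4 genes were lower late. Of 12 other PPARalpha target genes, 2, 3, 6 and 5 were lower at day 21, day 45, late and in the knockout, and none was higher.

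Among 10 arachidonic acid and fatty acid P450s, 1 was higher and 1 lower at day 45, 1 higher and 3 lower late, and 1 higher and 2 lower in the knockout. Without knockout C, 1 was higher and 5 were lower in the knockout, against 31.7 and 30.7% of all genes. Cyp2c44, an epoxygenase of arachidonic acid, was at 263, 236 and 274 FPKM at day 0, 348, 374 and 318 at day 21 and 297, 200.0 and 314 at day 45. It was at 144 and 132 late and 120.1, 95.9 and 139.6 in the knockout, with no overlap between these 2 groups and the rest. Its log2 difference was -0.89 ± 0.22 late (limma adjusted p = 0.00798) and -1.13 ± 0.19 in the knockout (0.00182). The knockout call held without any library and the late call was lost without day 200 (0.057). Cyp2j5, another epoxygenase, went from 242, 304 and 269.8 FPKM at day 0 to 72.1, 66.3 and 205 in the knockout (-1.44 ± 0.34, 0.00851), and this held without any library. Cyp4f16 rose instead, from 1.53, 0.598 and 1.56 FPKM at day 0 to 3.35, 5.59 and 3.69 at day 45, 6.52 and 5.36 late and 11.8, 10.2 and 3.11 in the knockout. Its log2 differences were 1.23 ± 0.35, 1.66 ± 0.40 and 1.94 ± 0.35 (0.0219, 0.00686 and 0.00246). The day 45 call was lost without day 0 B or day 45 B and the late call without day 100 (up to 0.101 and 0.0725). Cyp4f14, which hydroxylates leukotrienes, was lower at day 45 (-0.74 ± 0.22, 0.0283) and late (-0.76 ± 0.25, 0.0349), with 196, 150.1 and 255 FPKM at day 0, 126, 118 and 107 at day 45 and 126 and 105 late. Both calls were lost without day 0 A or day 0 C and without several of the later libraries (day 45 B, day 45 C, day 100 and day 200, up to 0.12 and 0.189). Cyp4f13 was also lower late (-0.61 ± 0.20, 0.0333), a call lost without any 1 of the libraries compared (up to 0.144). With all libraries, Cyp2j6, Cyp2j9, Cyp4f15, Cyp4v3 and Cyp2u1 passed in none of the comparisons with day 0. Without knockout C, Cyp2j6, Cyp4v3 and Cyp2u1 were lower in the knockout (log2 -0.91, -1.28 and -1.97). Among Xist-positive libraries Cyp2j6 was higher at day 45 and late and lower in the knockout (log2 0.48, 0.44 and -0.73, adjusted p = 0.0427, 0.0464 and 0.00319). Cyp4f15 was lower there late and in the knockout (-0.57 and -0.42, 0.0182 and 0.0443), as were Cyp4v3 (-0.99, 0.000397) and the fatty acid hydroxylase Cyp2u1 (-1.29 ± 0.32, 0.00747) in the knockout.

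Apart from Cyp4f18, described below, the remaining members that passed belong to the Cyp2c and Cyp2d clusters. Cyp2c67 fell from 129, 235 and 118 FPKM at day 0 to 27 and 26 late and 24.2, 14.2 and 53.1 in the knockout. The log2 difference was -2.48 ± 0.50 and -2.48 ± 0.45 (limma adjusted p = 0.00257 and 0.00224), and both calls held without any library. Cyp2d13 was at 55.8, 46.7 and 55.7 FPKM at day 0, 35.2, 25.7 and 24.4 at day 45, 19.2 and 22.3 late and 14.5, 15.4 and 37.9 in the knockout, all below day 0. Its log2 differences were -0.88 ± 0.30, -1.30 ± 0.34 and -1.32 ± 0.30 (0.0457, 0.0104 and 0.00728). The day 45 call was lost without any 1 of the day 0 libraries, day 45 B or day 45 C (up to 0.145) and the late call without day 100 (0.0971). Cyp2d12, a low gene, rose from 0.122, 1.59 and 0.118 FPKM to 4.46, 5.42 and 7.42 at day 45 and 11.1, 8.69 and 1.44 in the knockout (2.17 ± 0.61 and 2.15 ± 0.61, 0.0201 and 0.0201). Both calls were lost without day 0 A or day 0 C, and without day 45 B, day 45 C, knockout A or knockout B (up to 0.0737 and 0.0902). Cyp2d40 was lower late, at 11.6 and 16.8 FPKM against 45.6, 40.2 and 33.9 at day 0 (-1.44 ± 0.33, 0.00558), and this was lost without day 100 (0.0853). The pseudogene Cyp2d37-ps was lower in the knockout, at 14.9, 12.4 and 23.4 FPKM against 58.2, 31 and 35.9 (-1.25 ± 0.29, 0.00756), and this held without any library.

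Cyp4f18, known from myeloid cells, rose from 0.346, 0.19 and 0.751 FPKM at day 0 to 2.51, 5.62 and 3.96 at day 45, 6.44 and 6.1 late and 6.01, 6.57 and 0.989 in the knockout. Its log2 differences were 1.79 ± 0.44, 2.37 ± 0.49 and 1.74 ± 0.44 (limma adjusted p = 0.0101, 0.00318 and 0.0117). The day 45 call was lost without day 45 B (0.0532) and the knockout call without knockout A or B (up to 0.0631). The summed FPKM of 7 macrophage markers moved with it, at 225 to 408 at day 0, 799 to 897 at day 45, 832 and 1019 late and 803, 543 and 287 in the knockout. That of 3 neutrophil markers was 4.53 to 18.4 at day 0, 42.9 to 83.3 at day 45, 103 and 183 late and 147, 124 and 30.4 in the knockout, and all 3 were higher in each of the 4 comparisons with day 0. All 6 lymphocyte markers were higher at day 21, day 45 and late and 2 in the knockout, with sums of 4.45 to 10.2 FPKM at day 0, 23.5 to 31.5 at day 45, 31.2 and 40.9 late and 22, 15.4 and 11.2 in the knockout. Of 5 endothelial markers, 2 were higher at day 21, day 45 and late and 1 lower in the knockout, and of 3 proliferation markers all were higher at day 45 and late and none in the knockout. Without knockout C, 4 lymphocyte markers and 1 proliferation marker (Cdk1) were higher in the knockout. The part of these lists in the result was not tested. The mostly extrahepatic Cyp4b1 did not pass (4.74 to 13.3 FPKM), Cyp2s1 was too low to test (0.225 to 1.44) and Cyp4x1 lay near 0. Cyp1b1, known from stromal cells, was too low to test, at 0.151, 0.155 and 0.201 FPKM at day 0 and 0.732, 2.03 and 0.955 at day 45. The 7 stellate and fibroblast markers summed to 18.3 to 26.6 FPKM at day 0 and 87.3, 246 and 114 at day 45, highest in the same library, and their part was not tested either. All 5 cholangiocyte markers were higher at day 45, late and in the knockout, and 2 at day 21. Spp1 made up most of their sum, at 40.9 to 54.6 FPKM at day 0, 383 to 1259 at day 45, 2866 and 1855 late and 506, 732 and 533 in the knockout, and Krt19 was at 1.01 to 2.19, 5.78 to 17.5, 15 and 19.4, and 23.7, 25.4 and 3.35 FPKM. Their part in the lower values of P450 genes was not tested. Of 8 tested hepatocyte markers, none passed at day 21 or day 45 by limma. Late 1 was lower (Apoa1, log2 -0.94), and in the knockout 1 was lower (Apob, -1.80, and -2.52 without knockout C) and 1 higher (Serpina1a, listed at 0 in every day 0 library). The summed level of these markers is not given, since Alb was at 0 in every library and Trf, another of them, at 0 in most but at 6279, 7843 and 12616 FPKM in day 0 B, day 21 C and knockout C.

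The sex-biased members differed between the 4 Y-positive and the 10 Xist-positive libraries. With group in the model, 6 of 58 members were higher and 12 lower in Y-positive libraries, against 0.678 and 0.854% of all tested genes. All 9 tested members of the female-biased list were lower and all 4 of the male-biased list higher. The largest differences among the members were those of Cyp2c69 (log2 -6.84 ± 0.38, limma adjusted p = 1.04e-06) and Cyp4a12a (6.07 ± 0.21, 1.05e-08). Beyond those lists, Cyp2a22, Cyp2g1 and Cyp2c68 were lower (-3.49, -1.72 and -1.67) and Cyp4v3 and Cyp2c67 higher (0.84 and 1.03). Cyp4a12a lay at 77.1 to 128 FPKM in Y-positive and 0.176 to 1.89 in Xist-positive libraries, without overlap, and Cyp2c69 at 0.923 to 5.12 against 32.9 to 760.

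**Figure D4:**
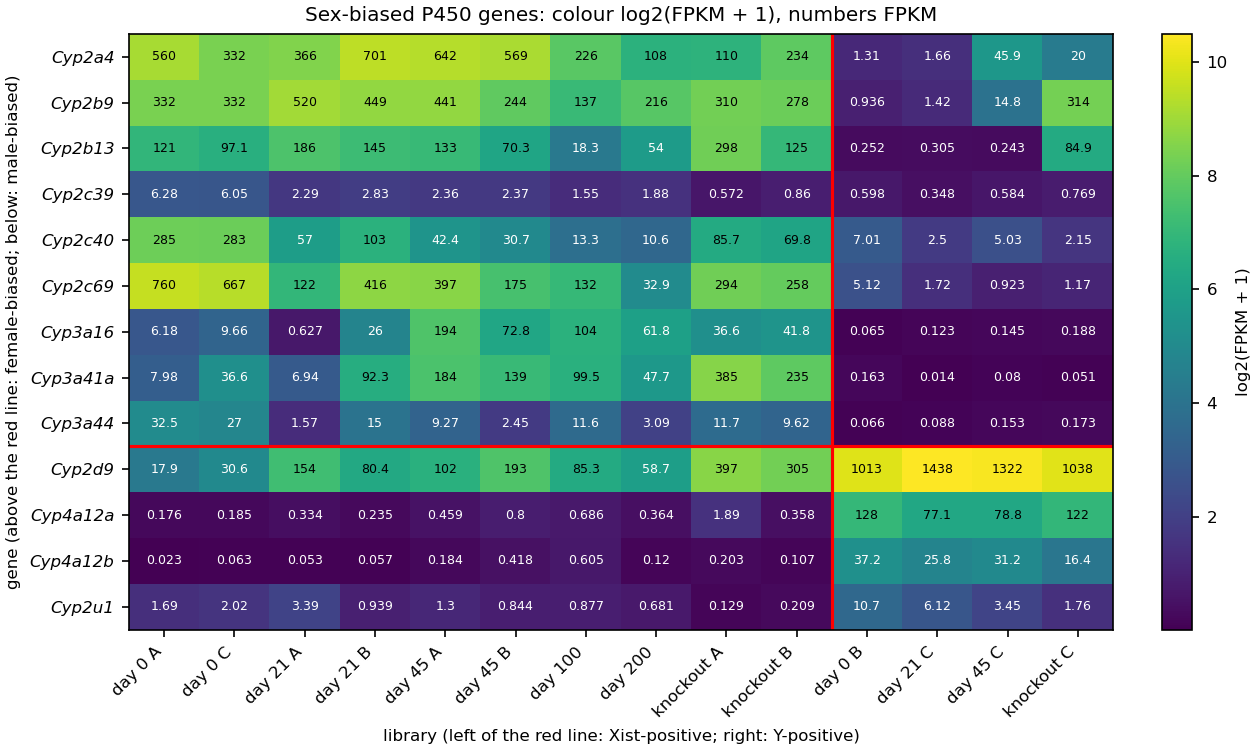
The grid shows log2(FPKM + 1) as colour and FPKM as printed values for 9 female-biased (top) and 4 male-biased (bottom) P450 genes in 10 Xist-positive (left) and 4 Y-positive (right) libraries. In 3 of the 4 Y-positive libraries, Cyp2b13 is near 0 and Cyp2b9 is at most at 14.8 FPKM, its value in day 45 C. In knockout C, Cyp2b9 and Cyp2b13 stand at 314 and 84.9 FPKM.

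Within the Xist-positive libraries the female-biased members moved in both directions. Cyp3a16 went from 6.18 and 9.66 FPKM at day 0 to 0.627 and 26 at day 21, 194 and 72.8 at day 45, 104 and 61.8 late and 36.6 and 41.8 in the knockout. Its log2 difference was 3.78 ± 1.03 at day 45 (limma adjusted p = 0.0227) and 3.21 ± 1.03 late (0.0331). Its neighbour Cyp3a41a went from 7.98 and 36.6 FPKM to 184 and 139 at day 45 and 385 and 235 in the knockout (3.13 ± 1.01 and 4.04 ± 1.01, 0.0441 and 0.00773). Cyp3a44, of the same cluster, was at 32.5 and 27 FPKM at day 0, 9.27 and 2.45 at day 45 and 11.6 and 3.09 late, and its differences of the opposite sign did not pass (-2.37 ± 0.82 and -2.10 ± 0.82, 0.0565 and 0.0687). All 3 encode CYP3A steroid and drug oxidases. With all libraries none of the 3 passed, and the Y-positive libraries were at most at 0.188 FPKM for each.

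The promoters of this trio are shown because these neighbours of nearly the same sequence had log2 differences of opposite sign. The windows are RefSeq sequences of build GRCm38.p6, from 250 bases before to 50 bases after the annotated start site, on the minus strand, at chr5:145469674-145469973 (Cyp3a16), chr5:145720087-145720386 (Cyp3a41a) and chr5:145805825-145806124 (Cyp3a44). Capitals mark CAAAGTCCA, a word bound by the liver factor HNF4, or the aligned 9 bases where it is changed.
Cyp3a16: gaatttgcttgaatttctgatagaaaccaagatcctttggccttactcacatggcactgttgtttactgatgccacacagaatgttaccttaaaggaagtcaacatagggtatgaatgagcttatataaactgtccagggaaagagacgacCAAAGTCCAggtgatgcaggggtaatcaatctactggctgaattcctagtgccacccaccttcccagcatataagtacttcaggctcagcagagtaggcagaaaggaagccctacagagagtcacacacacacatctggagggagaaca
Cyp3a41a: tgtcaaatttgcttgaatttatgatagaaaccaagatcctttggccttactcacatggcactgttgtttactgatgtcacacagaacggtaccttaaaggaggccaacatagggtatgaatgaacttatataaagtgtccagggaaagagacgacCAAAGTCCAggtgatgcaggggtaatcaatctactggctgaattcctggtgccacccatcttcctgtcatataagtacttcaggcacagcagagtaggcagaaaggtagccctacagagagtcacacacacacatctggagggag
Cyp3a44: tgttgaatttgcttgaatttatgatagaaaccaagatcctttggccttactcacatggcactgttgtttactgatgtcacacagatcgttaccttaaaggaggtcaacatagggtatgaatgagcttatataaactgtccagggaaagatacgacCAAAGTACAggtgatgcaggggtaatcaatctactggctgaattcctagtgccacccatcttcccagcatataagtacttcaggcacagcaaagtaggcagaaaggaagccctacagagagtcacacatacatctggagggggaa
Aligned, Cyp3a44 was 95.9% identical to Cyp3a16 and 94.3% to Cyp3a41a, and these 2 were 94.6% identical to each other. In the capitals, Cyp3a44 differs from both by C7A, counted from the 5′ end of the word. The exact word, on either strand, stood in 0.475% of all 32851 promoter windows and in 9 of 66 windows of members, 1 each for Cyp3a11, Cyp3a16, Cyp3a41a, Cyp2c40, Cyp2c65, Cyp2c67, Cyp2c68, Cyp2c69 and Cyp2c70. The windows covered 59 of the 83 members. Other words searched on both strands were TTCNNNGAA (STAT5, 2 of 66 windows against 8.3% of all), GCGTG (AhR core, 14 against 32.4%), AGGTCA (nuclear receptor half-site, 19 against 16.3%) and GTTAAT (HNF1 half-site, 9 against 7.1%). Several windows are copies of each other, so these shares are descriptions. Within the trio, AGGTCA stood in the window of Cyp3a44 alone, with its first base at -150 from the start site. The part of this word or of C7A in the opposite signs was not tested.

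Cyp2c40, a female-biased gene of the Cyp2c cluster, was lower in all 4 comparisons among Xist-positive libraries. It went from 285 and 283 FPKM at day 0 to 57 and 103 at day 21, 42.4 and 30.7 at day 45, 13.3 and 10.6 late and 85.7 and 69.8 in the knockout. Its log2 difference was -1.88 ± 0.27, -2.94 ± 0.27, -4.47 ± 0.27 and -1.86 ± 0.27 (limma adjusted p = 0.0141, 0.000491, 5.95e-05 and 0.000472). Cyp2c69, of the same cluster and bias, passed late, when it went from 760.0 and 667 to 132 and 32.9 FPKM (-3.41 ± 0.69, 0.0044), but not at day 21, at day 45 or in the knockout (-1.65, -1.43 and -1.37, 0.169, 0.146 and 0.116). With all libraries and a term for sex it passed at day 45 and in the knockout as well (-1.51 and -1.41, 0.0443 and 0.0475). Cyp2c68 was lower at day 45, late and in the knockout (-1.19, -1.61 and -0.83, 0.00561, 0.000866 and 0.0111). Of the 9 female-biased members, 2 were higher and 2 lower at day 45 in these libraries, 1 higher and 6 lower late, and 1 higher and 3 lower in the knockout. For Cyp2a4, Cyp2b9 and Cyp2b13 in the late group, the direction turned from higher with all libraries (log2 1.06, 1.53 and 0.40, none past the threshold) to lower (-1.46, -0.94 and -1.75, adjusted p = 0.0345, 0.028 and 0.0266). The late group holds no Y-positive library and day 0 holds 1. Cyp2c39 was lower in all 4 comparisons among Xist-positive libraries (log2 -1.01, -1.09, -1.40 and -2.07, adjusted p = 0.0168, 0.00261, 0.000401 and 2.7e-05).

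Cyp2d9, a male-biased steroid 16alpha-hydroxylase, was higher than day 0 in each later group of Xist-positive libraries. In these it was at 17.9 and 30.6 FPKM at day 0, 154 and 80.4 at day 21, 102 and 193 at day 45, 85.3 and 58.7 late and 397 and 305 in the knockout, each above day 0. The log2 differences at day 45, late and in the knockout were 2.53, 1.55 and 3.84, each ± 0.40 (limma adjusted p = 0.00329, 0.0133 and 9.93e-05), and day 21 also passed (0.022). In Y-positive libraries it was at 1013 at day 0, 1438 at day 21, 1322 at day 45 and 1038 in the knockout. The male-biased Cyp4a12a and Cyp4a12b stayed at most at 1.89 and 0.605 FPKM in Xist-positive libraries throughout. Cyp2a22, on neither list but far lower in Y-positive libraries, was higher at day 21, day 45 and in the knockout among Xist-positive libraries (1.80, 1.62 and 1.63, 0.0265, 0.00886 and 0.00342), with 29.8 and 26.9 FPKM at day 0, 131 and 60.7 at day 45 and 88.2 and 91.4 in the knockout.

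Knockout C stood apart from the other Y-positive libraries in some members, the Cyp2b9 and Cyp2b13 pair among them. Cyp2b9, a female-biased steroid hydroxylase, was at 0.936, 1.42 and 14.8 FPKM in the Y-positive libraries of day 0, day 21 and day 45 and at 314 in knockout C, against 137 to 520.4 in Xist-positive libraries. Its paralogue Cyp2b13 was at 0.252, 0.305, 0.243 and 84.9 FPKM in the same 4 libraries. Cyp2a4, at 1.31, 1.66, 45.9 and 20, lay in knockout C above day 0 B and day 21 C and below day 45 C. Cyp2c69 at 1.17 and Cyp4a12a at 122 FPKM in knockout C lay within the range of the other Y-positive libraries. Cyp2b10 and Cyp2a22 were higher in knockout C, at 9.27 and 43.6 FPKM, than in the other 3, at 0.108 to 1.51 and 0.424 to 8.24. A term in the model gave the knockout effect in Y-positive libraries minus that in Xist-positive libraries. It was log2 7.52 for Cyp2b9, 5.27 for Cyp2b13 and 4.61 for Cyp2a4. Each Y-positive arm is 1 library, so that the spread came from the Xist-positive pairs alone and the lone library was assumed to vary like them. Under that assumption the term passed for 19 of 58 members and 12.2% of all genes in the knockout, and for no member at day 21 (0.0705% of all genes) or day 45 (0.0264%), which does not show that the effects differ between the sexes. The sex and the single liver cannot be told apart. The promoters of the pair, shown because they are nearly the same, lie on the plus strand of GRCm38.p6 at chr7:26173159-26173458 (Cyp2b9) and chr7:26061245-26061544 (Cyp2b13), and capitals mark the bases at which they differ.
Cyp2b9: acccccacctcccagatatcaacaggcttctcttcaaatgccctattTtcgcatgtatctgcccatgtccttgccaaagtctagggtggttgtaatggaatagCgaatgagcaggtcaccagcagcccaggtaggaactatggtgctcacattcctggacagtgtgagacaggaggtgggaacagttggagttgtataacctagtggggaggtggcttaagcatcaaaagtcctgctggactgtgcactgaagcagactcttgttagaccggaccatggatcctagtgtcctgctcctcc
Cyp2b13: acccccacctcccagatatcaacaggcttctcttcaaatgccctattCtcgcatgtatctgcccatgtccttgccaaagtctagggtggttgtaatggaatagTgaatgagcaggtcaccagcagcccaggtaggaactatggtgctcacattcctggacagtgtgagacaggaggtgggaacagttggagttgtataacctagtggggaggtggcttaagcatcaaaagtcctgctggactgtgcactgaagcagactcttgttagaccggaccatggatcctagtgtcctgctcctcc
They were 99.3% identical over 300 bases and differed by T48C and C104T (Cyp2b9 base first, position counted from the 5′ end of the window).

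**Figure D5:**
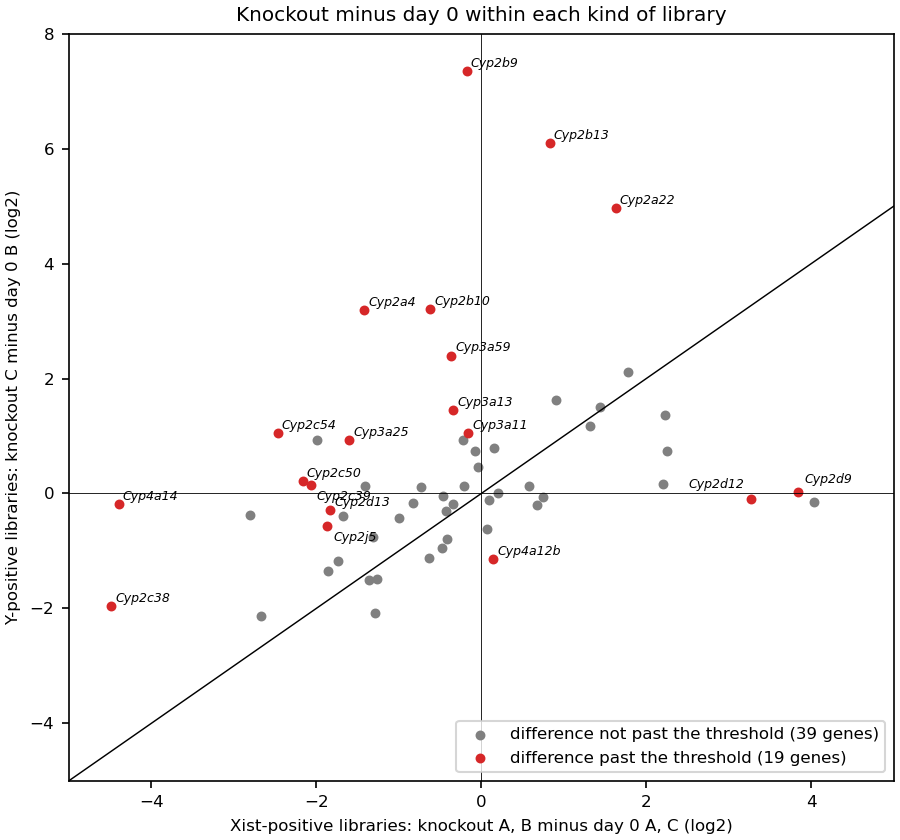
Each point is 1 of the 58 tested members, with the log2 difference of knockout A and B from day 0 A and C (Xist-positive, x axis) against that of knockout C from day 0 B (Y-positive, y axis), a diagonal of equal effects, and red for the 19 members whose term passed on the assumption that a lone library varies like the Xist-positive pairs. Among the red points, Cyp2b9, Cyp2b13, Cyp2a4, Cyp4a14, Cyp2b10, Cyp2c54 and Cyp2a22 lie far above the diagonal, and Cyp2d9 and Cyp2d12 far below it.

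Several abundant members passed in no comparison with day 0. The steroid hydroxylase Cyp2a12 lay between 440 and 793 FPKM over all libraries, Cyp2d10 between 302 and 723, Cyp2d26 between 413 and 847 and Cyp2c70 between 233 and 484. Their log2 differences from day 0 ran from -0.58 for Cyp2c70 at day 21 to 0.43 for Cyp2d10 in the knockout, with standard errors of 0.20 to 0.27. In all, 36 of the 58 tested members passed in none of the 4 comparisons, which does not show that their levels were equal. Without knockout C, Cyp2d10 passed as higher in the knockout (0.56, limma adjusted p = 0.0275).

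Between day 45 and day 21, no member passed (limma), where 0.273% of all genes were higher and 0% lower. An unadjusted p under 0.05 was found for 4 of 58 members and for 1811 of all 11354 genes. Between the knockout and day 45, Cyp2c44 (log2 -1.17 ± 0.19, limma adjusted p = 0.00539) and Cyp2c67 (-1.76 ± 0.45, 0.0335) were lower and no member was higher. Of all genes, 8.23% were lower and 1.21% higher. Here 11 of 58 members and 4128 of all 11354 genes had an unadjusted p under 0.05. Cyp2c67 was lost without knockout A, knockout B or any 1 of the day 45 libraries (up to 0.131), after median centring (log2 -1.54, 0.0809) and with the replicate block (0.0543). When only these 2 groups entered the fit, both were lost (0.113 for Cyp2c44 and 0.201 for Cyp2c67). Without knockout C, 4 members were higher and 17 lower in this comparison, against 14.6 and 37.5% of all genes. In the comparison of the knockout with day 0, 7 were then higher and 15 lower, against 31.7 and 30.7% of all genes. The 16 members called there with all libraries passed without knockout C too, at log2 -3.69 for Cyp2c38, -2.97 for Cyp2c67, -2.17 for Cyp2c37, -1.95 for Cyp2j5, -1.65 for Cyp2f2, 1.29 for Cyp1a2 and 2.45 for Cyp4f16. The highest adjusted p among them was that of Cyp2c55 (log2 1.17, 0.0471).

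Some calls rested on the model. When only the knockout and day 0 entered the fit, 10 of the 16 knockout calls were lost (Cyp2a5, Cyp2c37, Cyp2c50, Cyp2c55, Cyp2d12, Cyp2d13, Cyp2d37-ps, Cyp2f2, Cyp2j5 and Cyp4f18, limma adjusted p 0.0522 to 0.13). A fit on the late group and day 0 alone ended the late call of Cyp4f14 (0.0538). With no filter on low values, Cyp3a11 and Cyp2d13 did not pass at day 45 (0.0572 and 0.0585), nor Cyp2c37 and Cyp2c50 in the knockout (0.0507 and 0.0556). After median centring, Cyp3a11 and Cyp4f16 did not pass at day 45 (0.082 and 0.0643). With the replicate letter as a block, Cyp2d13 and Cyp4f14 did not pass at day 45 (0.0811 and 0.0515), nor Cyp2r1 at day 21 (0.0528).

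Of the 5 tested electron donors of P450s, Por was higher at day 45 and in the knockout (log2 1.47 ± 0.40 and 1.41 ± 0.40, limma adjusted p = 0.0157 and 0.0189) and Cyb5b lower in the knockout (-1.28 ± 0.24, 0.00293). Without knockout C their knockout differences were 1.93 and -1.49, and Pgrmc1 was also lower (-0.77, 0.00216). Por was at 121, 51.4 and 97.7 FPKM at day 0, 264, 225 and 225 at day 45 and 301, 351 and 111 in the knockout. Of 9 genes of heme synthesis and breakdown, the heme-degrading Hmox1 was higher in all 4 comparisons with day 0 (log2 1.18 to 1.78), and Fech and Uros lower in the knockout. Without knockout C, 3 of the 9 were higher in the knockout (Hmox1, Alad and Alas1, log2 1.44, 1.24 and 1.32) and 3 lower (Fech, Uros and Cpox, -0.99, -0.64 and -1.33). Of 16 regulators of P450 genes, 1 was higher at day 45 (Ctnnb1), 2 late (Arnt and Ctnnb1), and 1 lower in the knockout (Stat5b, -0.48 ± 0.16, 0.0362). Ahr, Hnf4a, Nr1i2, Nr1i3 and Ppara passed in none with all libraries. Without knockout C, Ppara and Ahr were lower in the knockout (log2 -1.01 and -0.83, adjusted p = 0.00173 and 0.0478, against -0.67 and -0.49 with it) and Nr1i2 higher (0.61, 0.00989, against 0.27). Of 3 tested AhR targets other than P450s, Nqo1 was higher at day 45, late and in the knockout (2.30, 1.89 and 0.86) and Tiparp late (0.65). Without knockout C, Tiparp was lower in the knockout (-0.51, 0.0103). From day 45 to the knockout, 2 of the 3 were lower.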

How the data were processed

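Livers were measured by polyA RNA-seq in 14 libraries and by small RNA sequencing. Per the study's methods, the authors aligned paired reads to mm9 with TopHat and computed the deposited FPKM values with Cufflinks (2.2.1 per the submitters' processing notes) using quartile library normalization, after removing ribosomal, snoRNA and mitochondrial sequences. FPKM is normalized by length and library, so a count test was not used here. The quartile step sets all levels relative to moderately expressed genes. The authors aligned small RNA reads to microRNAs with Bowtie (0.12.7), and the deposited microRNA score is RPM plus 1, from which the miR-122 share was computed.

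The 22308 rows were summed to 21888 symbols (224 had more than 1 row, among members Cyp3a41a). Testing was limited to genes averaging 1 FPKM or more, with limma 3.58.1 in R 4.3.3 (lmFit, contrasts.fit, eBayes with trend) on log2(FPKM + 1) with 5 groups and 6 contrasts, with Benjamini-Hochberg adjustment over 11354 genes per contrast and a threshold of 0.05. Fold changes on this scale understate those of low genes. The script was tested on simulated data. Errors in the text are standard errors of the log2 difference. Alternatives were a pseudocount of 0.1, no filter, median centring, only the 2 groups compared, no trend, the replicate letter as a block, a sex term, the highest row of a symbol, each library left out and, chosen after seeing the data, Xist-positive libraries only and group-by-Y terms. Promoter windows came from RefSeq (GRCm38.p6), whereas file coordinates are mm9. Alignments used Biopython 1.88. Members and gene lists were chosen with earlier results of these data known. Named were the members of the lists, other members past the threshold against day 0 and the most abundant of a subfamily. The rest were given by counts. Outside this rule, Cyp2a12, Cyp2a22, Cyp2c68, Cyp2c70, Cyp2d10 and Cyp3a59 were chosen after their values were seen. Same-letter libraries of different groups deviated from their group means with r of -0.447 to 0.501, other pairs with -0.411 to 0.508, and letters were not taken as pairs.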

Additional observations from a re-analysis of the deposited data

Results flagged for a closer look

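For 19 members the knockout effect in Y-positive libraries (knockout C against day 0 B) was set apart from that in Xist-positive libraries (knockout A and B against day 0 A and C) by a limma interaction term with an adjusted p below 0.05. Each Y-positive arm is 1 library, so that the spread behind this p came from the Xist-positive pairs alone, the lone library was assumed to vary like them, and sex and knockout C itself cannot be told apart. The values below are log2 Y-positive effects minus Xist-positive effects. Among Cyp2a and Cyp2b genes the difference was 3.34 for Cyp2a22, 4.61 for Cyp2a4, 3.83 for Cyp2b10, 5.27 for Cyp2b13 and 7.52 for Cyp2b9. Cyp2b9 was at 0.936 FPKM in day 0 B and 314 in knockout C, and at 332 and 332 in day 0 A and C against 309.9 and 278 in knockout A and B. In the Cyp2c cluster it was 2.54 for Cyp2c38, 2.21 for Cyp2c39, 2.38 for Cyp2c50 and 3.52 for Cyp2c54. These genes had Xist-positive effects of -4.49, -2.07, -2.17 and -2.47. In the Cyp3a cluster it was 1.21 for Cyp3a11, 1.80 for Cyp3a13, 2.53 for Cyp3a25 and 2.76 for Cyp3a59, and knockout C was the highest of the 14 libraries for each of them. Further positive differences were 1.54 for Cyp2d13, 1.30 for Cyp2j5 and 4.21 for Cyp4a14. The 3 negative ones were -3.36 for Cyp2d12, -3.80 for Cyp2d9 and -1.28 for Cyp4a12b.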

How the results depend on the processing

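Counts of members called changed with the libraries used. The share of all genes called was computed for the main fit, for Xist-positive libraries against day 0, and without knockout C or day 100. For the other counts below it was not computed, so they cannot be read as particular to the members. Against day 0, limiting the fit to Xist-positive libraries gave 6 higher and 4 lower at day 21, 13 and 13 at day 45, 10 and 26 late and 10 and 22 in the knockout, with 1 higher from day 21 to day 45 and 8 higher and 19 lower from day 45 to knockout. There the direction turned for Cyp2a4 (-1.46), Cyp2b13 (-1.75), Cyp2b9 (-0.94) and Cyp2d9 (1.55) late, Cyp2a4 in the knockout (-1.42) and Cyp2d12 from day 45 to knockout (0.87, log2). A sex term gave 2, 8, 17 and 16 lower against day 0 in turn, and 1 higher and 7 lower from day 45 to knockout. Fitting only the 2 groups compared gave 4 higher and 2 lower at day 21, 7 lower at day 45, 2 higher and 4 lower in the knockout and 1 lower from day 45 to knockout. Median centring gave 7 lower at day 45, 21 lower late and 1 lower from day 45 to knockout, and no filter gave 4 lower there. The replicate block gave 0 lower at day 21 and 1 lower from day 45 to knockout, and otherwise kept the counts within 1.5 times. Leaving out each library in turn gave 0 to 2 higher and 0 to 1 lower at day 21, 3 to 6 and 1 to 4 at day 45, 1 to 4 and 2 to 12 late, 3 to 7 and 7 to 15 in the knockout, 0 and 0 from day 21 to day 45, and 0 to 4 and 1 to 17 from day 45 to knockout. The cause of these shifts was not tested, beyond fewer samples in the fits on 2 groups, on Xist-positive libraries and without a library. Where a lone late library remained, it was assumed to vary like the other groups. FPKM without counts leaves the precision of low members unknown.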
